A study of Homo sapiens with 20 samples.

Results

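Gene expression was compared between 5 untreated WT clones and 5 untreated ZBTB48 KO clones of U2OS, an osteosarcoma cell line. These are 10 of the 20 RNA-seq libraries of the series, taken by their labels and compared without pairing. The WT clones were WT1, WT3, WT4, WT5 and WT6, and the clones labelled KO were KOC3, KOC5, KOD2, KOE2 and KOF4. Neither group received IFNγ. The other 10 libraries hold the same clones after 24 h with 250 U/ml IFNγ and are used here only to see whether a pattern of an untreated clone came back in a separate library. Each library is 1 clone, so n counts clones. The U2OS clones had been made for an earlier study, and how the gene was disrupted in each is not given in the sources used here. Within a single KO clone, an effect of the lost gene and a trait of that clone cannot be told apart, and the question here is which differences all 5 KO clones shared.

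ZBTB48, also called TZAP, is a zinc finger protein of the BTB family. It binds the telomeric repeat TTAGGG at chromosome ends, and it also binds promoters, where it acts as a transcription factor. Its known target genes include MTFP1, a mitochondrial fission factor, PXMP2, a channel protein of the peroxisomal membrane, and CIITA, the master regulator of MHC class II genes, which is silent in most cells until IFNγ induces it.

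A WT library held between 46652288 and 58996488 counts and a library labelled KO between 48059205 and 60079726. Between 21276 and 23255 genes had more than 3 counts in a library, and KOC5 had the fewest. Levels are given as CPM, counts per 1000000 counts of a library scaled by edgeR's TMM factors, and 3 counts, the floor used here, came to between 0.0499 and 0.0643 CPM. Of 43366 genes, 19505 passed edgeR's filter on low counts and were tested. Of 9 marker genes listed for mesenchymal cells and bone tumours, 8 were tested, and the list summed to between 8690 and 17000 CPM in WT and between 6540 and 10000 CPM in KO libraries. COL1A2, a collagen chain of bone, stayed between 0 and 0.918 CPM in all 10 libraries, whereas VIM, the mesenchymal filament vimentin, lay between 1260 and 1770 CPM. The 21 markers listed for other cell types summed to between 13.4 and 56.8 CPM in WT and between 12.9 and 58.2 CPM in KO libraries.

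The targeted gene was measured first, since it checks the labels. ZBTB48 lies on chromosome 1 of GRCh38, from 6579994 to 6589280. Its level was 9.05, 8.07, 9.01, 9.59 and 9.35 CPM in WT1, WT3, WT4, WT5 and WT6. In KOC3, KOC5, KOE2 and KOF4 it was 1.32, 1.96, 3.23 and 4.15 CPM, and in KOD2 it was 11.5 CPM. The mRNA was thus below every WT clone in 4 clones labelled KO and above every WT clone in the library labelled KOD2, and the fitted difference (KO minus WT) in log2 units was -1.02 ± 0.48 (standard error, edgeR adjusted p = 0.98). Gene counts do not show whether a transcript still encodes the protein. Another label could be questioned from the treated libraries. Of 5 genes that set untreated KOE2 apart and were measured after IFNγ, 5 were most extreme in the treated library labelled KOF4, and of 18 such genes of KOF4, 17 were most extreme in the treated library labelled KOE2. Both labels say KO, so the groups stay the same under an exchange.

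The clones labelled KO shared a large loss of a small set of transcripts. The study required an adjusted p below 0.01 together with a 2-fold change, and at these limits edgeR's quasi-likelihood test called MTFP1, VWA5A and PXMP2. All 3 genes fell in the KO clones. They are 0.0154% of the genes tested. No gene rose past both cut-offs with edgeR. At an unadjusted edgeR p under 0.05, 432 genes were higher and 503 lower, which together make 4.79% of the genes tested. With no difference between the groups, a share of about 0.05 would pass that limit. DESeq2 without shrinkage called 13 genes, among them these 3, and no rise. The same 3 genes were the only ones that lay at least 4-fold outside the WT range in each of the 5 KO clones. They sit on chromosomes 22, 11 and 12, and earlier work had reported them as lower in ZBTB48 KO cells. The U2OS clones used here come from that work, so a stable trait of these clones could return in both.

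**Figure D1:**
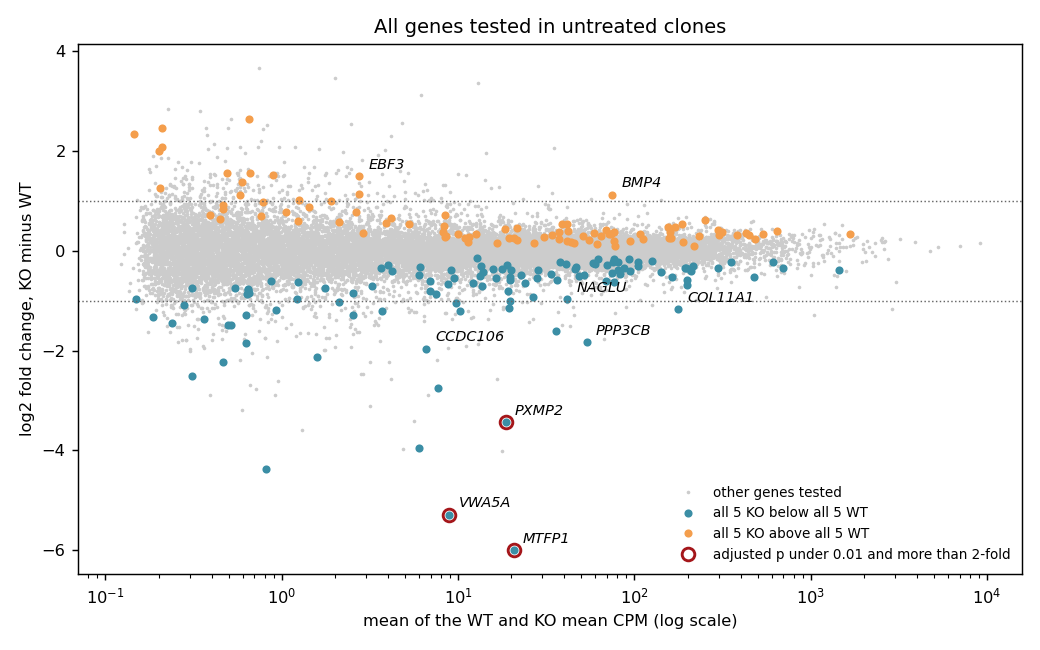
Log2 fold change (KO minus WT) against mean level in CPM (log scale) for the 19505 genes tested, with each gene as a point, the dotted lines at a 2-fold change, and colours for genes whose 5 KO clones all lay below or all above the 5 WT clones. MTFP1, VWA5A and PXMP2 are ringed and stand apart at -6.00, -5.29 and -3.44, and no gene is ringed above 0.

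The RefSeq promoter windows of 2 of these genes, and of 2 further genes described below, are printed here so that the telomeric repeat can be looked for at the gene start. Each runs from 250 bases before to 50 bases after the start of the gene, on GRCh38.p14, 5′ to 3′ on the strand of the gene, with TTAGGG or its reverse complement CCCTAA in capitals. MTFP1 is on the plus strand at chr22:30425518-30425817, PXMP2 on the plus strand at chr12:132687337-132687636, TCN1 on the minus strand at chr11:59866438-59866737 and COL11A1 on the minus strand at chr1:103108473-103108772.
MTFP1: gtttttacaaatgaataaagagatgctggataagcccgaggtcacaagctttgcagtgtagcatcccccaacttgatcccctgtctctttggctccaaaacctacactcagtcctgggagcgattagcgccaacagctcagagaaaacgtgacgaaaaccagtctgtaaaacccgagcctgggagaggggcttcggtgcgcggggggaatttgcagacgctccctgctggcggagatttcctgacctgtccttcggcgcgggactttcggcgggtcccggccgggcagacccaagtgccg
PXMP2: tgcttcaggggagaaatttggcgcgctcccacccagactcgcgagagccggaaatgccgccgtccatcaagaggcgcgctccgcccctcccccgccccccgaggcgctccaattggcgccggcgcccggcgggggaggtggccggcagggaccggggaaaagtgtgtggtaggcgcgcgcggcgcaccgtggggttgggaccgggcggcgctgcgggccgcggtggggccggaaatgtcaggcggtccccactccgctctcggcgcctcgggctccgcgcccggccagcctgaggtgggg
TCN1: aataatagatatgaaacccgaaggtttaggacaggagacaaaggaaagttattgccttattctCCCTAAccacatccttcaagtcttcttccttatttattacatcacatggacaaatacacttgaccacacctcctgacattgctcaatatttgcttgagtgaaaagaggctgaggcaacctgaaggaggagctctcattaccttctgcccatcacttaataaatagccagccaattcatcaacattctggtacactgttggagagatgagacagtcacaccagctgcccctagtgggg
COL11A1: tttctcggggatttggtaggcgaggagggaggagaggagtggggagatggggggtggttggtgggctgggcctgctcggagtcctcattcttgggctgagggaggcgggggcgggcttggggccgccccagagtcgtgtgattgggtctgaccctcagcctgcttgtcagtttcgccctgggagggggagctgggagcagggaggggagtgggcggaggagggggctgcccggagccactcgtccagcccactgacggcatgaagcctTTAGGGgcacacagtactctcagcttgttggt

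Neither letter string is in the MTFP1 or the PXMP2 window. This search does not measure binding. The study found ZBTB48 at the MTFP1 promoter by chromatin immunoprecipitation. The CIITA promoter site that it crystallized with the protein holds GGG but not TTAGGG. TCN1 holds 1 CCCTAA that starts at position 64 of its window, counted from 1 at the 5′ end, and COL11A1 holds 1 TTAGGG at position 269. Of 23 genes looked up, 17 had a window in the table, and 2 of these 17 held the motif. Across all RefSeq promoters it was in 3179 of 35116 windows, or 9.05%, and in 1703 of 20290 windows of tested genes, or 8.39%. Some of the 17 genes had more than 1 window, so the count of genes and these shares of windows are not alike. VWA5A, CIITA, EVI2A, PPP3CB, TMEM100 and NAGLU had no entry.

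MTFP1 encodes a protein of the inner mitochondrial membrane that promotes fission. It lies on chromosome 22 from 30425768 to 30429054 on the plus strand. Its level was 34.9, 48.7, 27.6, 38.4 and 53.7 CPM in WT1, WT3, WT4, WT5 and WT6, and 0.808, 0.224, 0.955, 0.628 and 0.527 CPM in KOC3, KOC5, KOD2, KOE2 and KOF4. The groups were far apart, and KOD2, whose ZBTB48 mRNA was not low, had as little MTFP1 as the other KO clones. The mean was 40.7 ± 10.5 CPM in WT and 0.628 ± 0.280 CPM in KO clones (SD, n = 5 each), a 64.1-fold lower level (log2 fold change -6.00, standard error 0.36, edgeR adjusted p = 1.74e-05). Every KO clone still gave reads, from 11 to 57 counts.

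PXMP2 lies on chromosome 12 from 132687587 to 132704985 on the plus strand. Its level was 29.0, 31.5, 34.5, 42.7 and 33.2 CPM in the WT clones, and 2.74, 4.04, 2.31, 3.07 and 3.57 CPM in the KO clones, in the same order as above. No KO clone came near the WT range, and none was near 0 either. The mean was 34.2 ± 5.18 CPM in WT and 3.15 ± 0.678 CPM in KO clones (SD, n = 5 each), which is 10.9-fold lower (log2 fold change -3.44, standard error 0.18, edgeR adjusted p = 9.87e-06). Its exons share 8 of 970 bases with LOC124903063 on the other strand.

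VWA5A encodes a protein with a von Willebrand factor type A domain. It lies on chromosome 11 from 124115450 to 124147721 on the plus strand. Its level was 18.3, 15.8, 20.04, 25.1 and 7.87 CPM in the WT clones, and 0.374, 0.0612, 0.637, 0.680 and 0.446 CPM in the KO clones. WT6 had the lowest WT level and was still far above every KO clone, while KOC5 gave 3 counts, which is the floor. The mean was 17.4 ± 6.34 CPM in WT and 0.440 ± 0.247 CPM in KO clones (SD, n = 5 each), which is 39.1-fold lower (log2 fold change -5.29, standard error 0.53, edgeR adjusted p = 0.00308). This call depended on the clones included, since the adjusted p lay between 0.0125 and 0.0249 when any 1 of 8 clones was left out, and under 0.01 only without WT6 or without KOC5. The fall stayed as large, between -5.50 and -5.01 in log2 units, whichever clone was left out.

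The genes beside these 3 did not pass the test. POLE, the catalytic subunit of DNA polymerase epsilon, starts 245 bases from PXMP2 on the other strand, and its promoter window shares 256 of 300 bases with the PXMP2 window printed above. POLE was at 109 ± 13.0 CPM in WT and 118 ± 13.4 CPM in KO clones (SD, n = 5 each), and its fitted log2 difference was 0.12 ± 0.12 (standard error, edgeR adjusted p = 0.982). SEC14L2, a lipid-binding protein that ends 465 bases before MTFP1 on the same strand, was at 29.99 ± 5.90 CPM in WT and 29.9 ± 7.56 CPM in KO clones (log2 fold change -0.0066, standard error 0.20, edgeR adjusted p = 0.999). Among the 12 nearest tested genes, counting both sides of the 3 genes, the log2 fold change lay between -0.52 for LOC124903063 and 0.57 for SCN3B. No neighbour came near the size of the fall beside it, but for VWA5A the nearest tested gene, ZNF202, was 373790 bases away.

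Of the other targets that the study names, CIITA had little mRNA at rest. It was at 3.19, 4.27, 2.66, 2.15 and 3.87 CPM in the WT clones and at 1.34, 2.73, 1.98, 2.23 and 2.09 CPM in the KO clones. The groups overlapped, and the fitted log2 difference was -0.64 ± 0.27 (standard error, edgeR adjusted p = 0.98, two-sided exact permutation p = 0.0397). DEXI, on the other strand, shares 7.62% of its exon bases. SNX15, a sorting nexin, had 0 counts in all 10 libraries. All of its 1908 exon bases are also exons of the readthrough gene ARL2-SNX15 on the same strand, so these counts do not measure it.

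A broader set can be drawn without a p-value, by asking in which genes all 5 KO clones lay on one side of all 5 WT clones. With a change of more than 2-fold, 29 genes were below the WT range in this way (0.149% of genes tested) and 16 were above it (0.082%). Without a size limit there were 114 below (0.584%) and 92 above (0.472%). For each such gene the two-sided exact permutation p is 0.00794, the smallest that 5 against 5 clones allow, and it does not survive adjustment over all genes. Groups without any difference would put a share of about 0.00794 of genes below or above the WT range. The sets without a size limit are not far from that share, so lying outside the range does not by itself show a shared change. Among genes with at least 1 CPM in the higher group, 19 were more than 2-fold below and 7 more than 2-fold above the WT range.

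**Figure D2:**
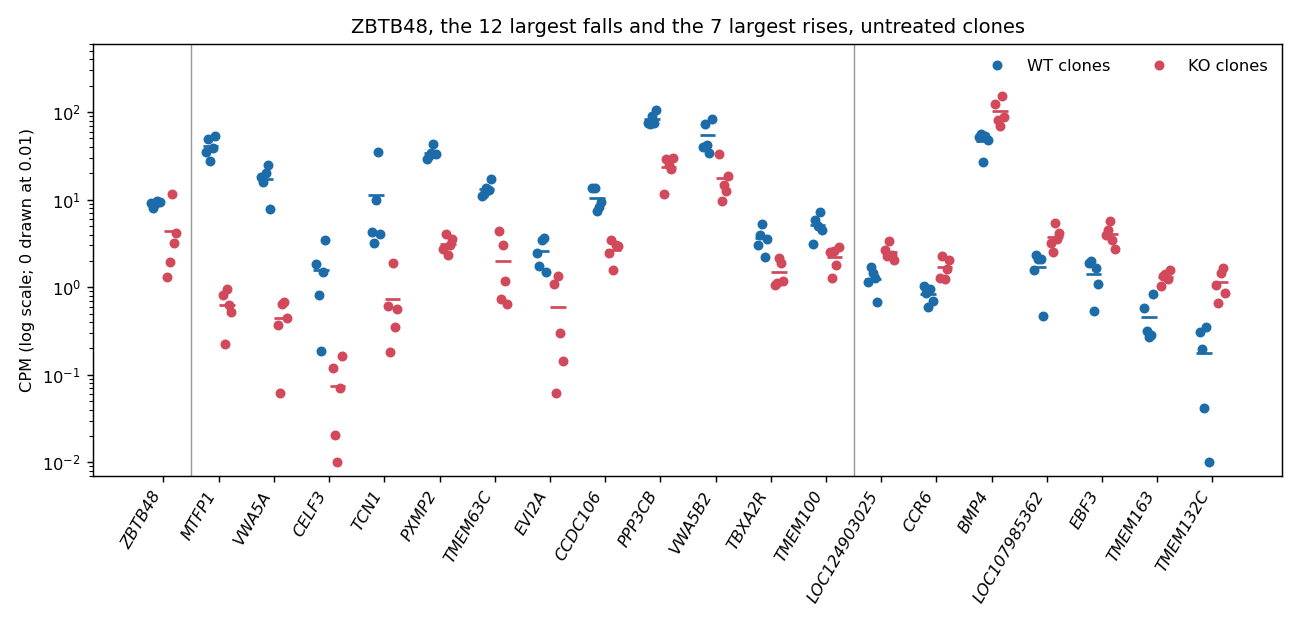
Level in CPM (log scale, values of 0 drawn at 0.01) of ZBTB48, the 12 largest falls and the 7 rises that lay outside the WT range in all 5 KO clones, with 1 point for each clone and a line at the group mean. For MTFP1, PXMP2 and VWA5A the groups are far apart, for most others they lie close together, and for ZBTB48 1 KO clone lies above the WT clones at 11.5 CPM.

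With edgeR, COL11A1, PPP3CB and CCDC106 stood just outside the cut-off for the adjusted p. PPP3CB encodes a catalytic subunit of calcineurin, the calcium-dependent phosphatase that activates NFAT factors. Its level was 76.1, 73.2, 90.6, 74.9 and 104 CPM in the WT clones and 11.5, 29.1, 25.2, 22.3 and 29.8 CPM in the KO clones. KOC3 was the lowest, and every KO clone was less than the lowest WT clone by a wide margin. The mean level was 3.55-fold lower in KO clones (log2 fold change -1.83, standard error 0.23, edgeR adjusted p = 0.0208). Leaving out KOC3 brought the edgeR adjusted p to 0.00303, a fit of all 20 libraries gave 0.0019 and edgeR without the filter 0.00494. Leaving out any other clone gave between 0.0445 and 0.127. In DESeq2 the adjusted p was 4.6e-10, and the log2 fold change with normal shrinkage was -1.04, past both cut-offs.

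PPP3CB was not alone at its locus. MSS51, which encodes a zinc finger protein of muscle, lies 2872 bases away on the same minus strand of chromosome 10, beyond the 3′ end of PPP3CB. It was at 1.33, 0.692, 0.887, 0.977 and 1.00 CPM in the WT clones and at 0.0788, 0.184, 0.352, 0.244 and 0.486 CPM in the KO clones. Its fitted log2 difference, -1.85 ± 0.43 (standard error, edgeR adjusted p = 0.74), was close in size to that of PPP3CB, and its groups did not overlap. USP54, a gene of the ubiquitin protease family on the other side, had a log2 fold change of -0.04 (standard error 0.15), ANXA7, an annexin, -0.05 (0.13) and PPP3CB-AS1, which overlaps the start of PPP3CB on the other strand, -0.13 (0.19). Among the other 11 tested genes of the calcineurin and NFAT list, PPP3CA and PPP3CC, which encode the other two catalytic subunits, had log2 fold changes of -0.13 and 0.04, and none lay outside the WT range.

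COL11A1, a chain of the fibrillar collagen XI of cartilage, had 224, 302, 256, 268 and 176 CPM in the WT clones and 95.9, 98.5, 117, 120 and 112 CPM in the KO clones. The KO clones were closer to each other than the WT clones were, and the groups did not overlap (log2 fold change -1.18, standard error 0.15, edgeR adjusted p = 0.0207). The edgeR adjusted p was 0.00494 without the filter and 0.00373 without WT6, while leaving out any other clone gave between 0.0502 and 0.0898. In DESeq2 the adjusted p was 2.14e-09, and the log2 fold change with normal shrinkage was -0.882, less than 2-fold. CCDC106, a coiled-coil protein, had 13.7, 13.6, 7.44, 8.15 and 9.48 CPM in the WT clones and 2.44, 3.49, 1.56, 3.0 and 2.98 CPM in the KO clones. It was 3.89-fold lower in the mean (log2 fold change -1.96, standard error 0.27, edgeR adjusted p = 0.0385). A fit of all 20 libraries gave an edgeR adjusted p of 0.0019, and leaving out any 1 clone between 0.0562 and 0.165. In DESeq2 the adjusted p was 1.31e-09, and the log2 fold change with normal shrinkage was -1.02, past both cut-offs. Of the 4 tested neighbours of CCDC106 the nearest, the splicing factor gene U2AF2 at a distance of 1874 bases, had a log2 fold change of -0.05.

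The other large differences below the WT range had wide errors. CELF3, an RNA-binding splicing regulator of neurons, was at 1.83, 0.816, 0.186, 1.49 and 3.48 CPM in the WT clones and between 0 and 0.162 CPM in the KO clones, with at most 8 counts in a KO library, and WT4 came close to the KO clones. TCN1, the cobalamin-binding protein haptocorrin, was at 4.31, 3.19, 9.98, 34.99 and 4.09 CPM in WT and at 0.611, 0.184, 1.91, 0.349 and 0.567 CPM in KO clones. Here WT5 set the mean, and the gap to the KO clones was 3.19 against 1.91 CPM. TMEM63C, a membrane protein of the osmosensitive channel family, had 11.1, 11.6, 13.8, 13.1 and 17.4 CPM in WT and 4.33, 0.734, 3.07, 1.17 and 0.648 CPM in KO clones.

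Log2 fold changes of the last 3 genes were -4.38 (standard error 0.87) for CELF3, -3.95 (0.84) for TCN1 and -2.75 (0.51) for TMEM63C, with edgeR adjusted p values of 0.4, 0.542 and 0.313. Among the 12 largest falls of genes with at least 1 CPM, there were also EVI2A, a gene inside an intron of NF1, at -2.12, VWA5B2, a relative of VWA5A, at -1.62, the thromboxane receptor gene TBXA2R at -1.28 and TMEM100 at -1.21. VWA5B2 ranged from 34.3 to 83.7 CPM in WT and from 9.77 to 33.2 CPM in KO clones, so that KOC3 nearly reached the lowest WT clone. EVI2A ranged from 1.51 to 3.68 CPM in WT and from 0.0612 to 1.36 CPM in KO clones, and the KO clones differed among themselves by more than the nearest clones of the 2 groups did.

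Fewer and smaller differences lay above the WT range. BMP4, a secreted ligand that drives bone and cartilage formation, was at 52.6, 55.7, 26.7, 52.7 and 47.7 CPM in the WT clones and at 123, 81.7, 69.6, 152 and 87.7 CPM in the KO clones. KOD2, the lowest KO clone, lay above the highest WT clone, WT3, and the mean was 2.18-fold higher in KO clones (log2 fold change 1.13, standard error 0.25, edgeR adjusted p = 0.598). EBF3, a helix-loop-helix transcription factor, had 1.88, 2.004, 0.536, 1.67 and 1.07 CPM in WT and 3.96, 4.47, 5.76, 3.42 and 2.71 CPM in KO clones (log2 fold change 1.5, standard error 0.36, edgeR adjusted p = 0.742). BMP4 shares 19.8% of its exon bases with LOC124903317 on the other strand.

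TMEM132C, a membrane protein, had a log2 fold change of 2.64 (standard error 0.71), but its levels only went from between 0 and 0.348 CPM in WT to between 0.653 and 1.66 CPM in KO clones. TMEM163, a zinc transporter, was at 1.52 (0.36), the chemokine receptor gene CCR6 at 1.01 (0.28), and the non-coding LOC107985362 and LOC124903025 at 1.15 (0.39) and 1.01 (0.28). None of these 7 genes passed edgeR's test, with adjusted p values from 0.598 to 0.98.

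The treated libraries gave a second look at the same clones. Of the 29 genes that were more than 2-fold below the WT range at rest, 27 were also tested after IFNγ, and in 12 of these, or 44.4%, all 5 KO clones again lay below all 5 WT clones, against 0.534% of all 18732 genes tested in both. Of the 16 genes above the WT range, 14 were tested after IFNγ and 1 (7.14%) was again above it, against 0.32% of all genes. The sign of the difference was the same after IFNγ for 26 of the 27 lower and 12 of the 14 higher genes. These are other libraries of the same clones, so a stable trait of a clone returns along with an effect of the lost gene. After IFNγ the MTFP1 level lay between 0.229 and 0.898 CPM in KO and between 32.4 and 46.9 CPM in WT clones, and PPP3CB between 11.2 and 29.2 CPM in KO and between 69.6 and 107 CPM in WT clones. BMP4 lay between 6.08 and 84.9 CPM in KO and between 19.9 and 38.9 CPM in WT clones after IFNγ, so its groups overlapped there, while EBF3 lay between 1.26 and 4.56 CPM in WT and between 6.54 and 15.1 CPM in KO clones.

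Gene lists were then read for smaller shifts shared by many genes. The lysosome degrades macromolecules with acid hydrolases, which are held in a membrane rich in LAMP proteins. Of 45 lysosomal genes tested, none was called, but 41 (91.1%) had a negative log2 fold change, against 49.7% of all genes tested. The median was -0.30, against 0.00168 over all genes tested. Of the 45 genes, 12 had an unadjusted p under 0.05, all of them lower, where the share over all genes in either direction is 4.79%. In 6 of 45 (13.3%) all 5 KO clones lay below the WT range, where the share over all genes is 0.584%.

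Among these 6 genes were NAGLU, CTSA, GRN, GNPTG and LAMP1. NAGLU, the enzyme that removes N-acetylglucosamine from heparan sulfate, was at 40.8, 61.1, 67.6, 48.1 and 56.8 CPM in the WT clones and at 30.4, 24.1, 31.4, 27.8 and 27.0 CPM in the KO clones. The KO clones were close to each other and all below WT1, the lowest WT clone (log2 fold change -0.96, standard error 0.15, edgeR adjusted p = 0.0803). CTSA, the protective protein cathepsin A, was at -0.69 (standard error 0.16), GRN, the progranulin gene, at -0.52 (0.14), GNPTG, a subunit of the enzyme that tags hydrolases for the lysosome, at -0.51 (0.12) and LAMP1 at -0.34 (0.10). For these 4 genes the edgeR adjusted p lay between 0.723 and 0.906.

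Summed over the 45 genes, CPM of the unscaled library total came to 11600, 12100, 12200, 11000 and 12100 in WT1, WT3, WT4, WT5 and WT6, and to 8980, 7960, 10300, 9420 and 8860 in KOC3, KOC5, KOD2, KOE2 and KOF4. The sums of the groups did not overlap, and KOD2 was the closest to the WT clones. In bulk libraries, fewer transcripts in each cell and fewer cells that make them cannot be told apart. Chromosome 17 had a negative median log2 fold change, although its clone medians overlapped between the groups (given below). Of the 4 members tested on chromosome 17, all 4 had a negative log2 fold change and 2 were below the WT range. Of the 41 on other chromosomes 37 were negative and 4 (9.76%) were below it, with a median of -0.28. Under the other settings tried the median of the list stayed between -0.34 and -0.18.

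**Figure D3:**
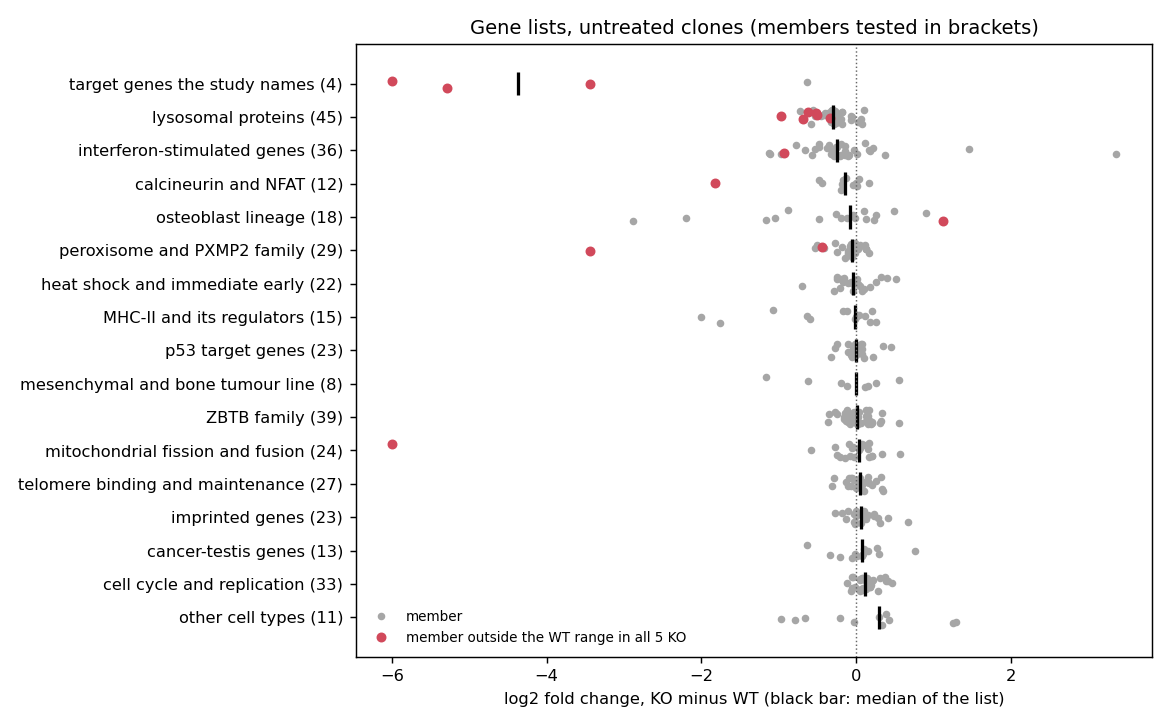
Log2 fold change (KO minus WT) of each tested member of 17 gene lists, with a black bar at the median of a list and red points for members whose 5 KO clones all lay outside the WT range. The lysosomal list is centred at -0.30 with 6 red points, and in the lists of mitochondrial fission and fusion and of peroxisomal genes MTFP1 and PXMP2 stand alone at -6.00 and -3.44.

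The lists around the called genes held no other call. Of 24 genes of mitochondrial fission and fusion, MTFP1 fell and no other passed the test, and the median of the list was 0.05. AFG3L2, a protease of the inner mitochondrial membrane encoded on chromosome 18, was at 0.57 ± 0.20 in log2 units (standard error, edgeR adjusted p = 0.98). Of 29 tested genes of the peroxisome and the PXMP2 family, PXMP2 fell and no other passed the test, with a list median of -0.05.

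Among 27 tested genes that bind or maintain telomeres, none was called or lay outside the WT range, and the log2 fold changes ran from -0.30 for TINF2, a shelterin subunit, to 0.35. Of 39 ZBTB family genes tested, none was called, with a median of 0.01. Of 15 MHC class II genes and regulators, none was called, although HLA-DMA at -1.76 (standard error 0.73) and HLA-DOB at -2.0 (0.86), both at no more than 3.35 CPM, and CIITA had an unadjusted p under 0.05. Of 36 interferon-stimulated genes, 28 had a negative log2 fold change with a median of -0.25, IFI6 lay below the WT range at -0.93 (standard error 0.25, edgeR adjusted p = 0.873), and none was called. Without 1 clone the median of this list lay between -0.34 and -0.10. The sums of that list overlapped, with 623 to 837 CPM in WT and 388 to 804 CPM in KO libraries, and KOC5 gave the lowest.

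Of 33 genes of the cell cycle and DNA replication, 27 had a positive log2 fold change, with a median of 0.12, and none had an unadjusted p under 0.05. In the osteoblast list of 18 tested genes, BMP4 lay above the WT range, while MGP, a matrix inhibitor of calcification, at -2.19 (standard error 0.72) and POSTN, the matrix protein periostin, at -2.89 (0.86) overlapped between the groups. No gene was called among 23 p53 targets (median -0.0026), 23 imprinted genes (0.06), 13 cancer-testis genes (0.08), 22 heat shock and immediate-early genes (-0.03), 11 markers of other cell types (0.30) or 8 mesenchymal markers (0.0022). For these 6 lists no member lay outside the WT range. Leaving out 1 clone moved the median to between 0.01 and 0.33 for markers of other cell types, -0.27 and 0.13 for mesenchymal markers, -0.10 and 0.10 for p53 targets, and -0.02 and 0.16 for imprinted genes.

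Against this small shared set, the clones varied widely among themselves. The root mean square difference in log2 CPM over all tested genes averaged 0.887 between a WT and a KO clone (25 pairs), 0.881 between WT clones and 0.897 between KO clones (10 pairs each). The difference of between and within genotypes was -0.0025 (two-sided exact permutation p = 0.857). Genotype held 10.6% of the sum of squares of log2 CPM. Any split of the libraries into groups of this size holds some share, of this sum and of each component below. The shares given here do not by themselves show a difference between the groups, and those of other splits were not computed. The first principal component carried 27.2% of the variance, of which 0.199% went with genotype. It set WT5, WT6 and KOC5 apart across genotypes, with scores of 41.0, 57.5 and 93.2, from the other clones, which scored between -33.7 and -15.2. The second and the third carried 13.2% and 12.2%, of which 22.8% and 22.4% went with genotype. For 8 of 10 clones the nearest library was of the same genotype, the exceptions being WT3, nearest to KOD2, and KOC5, nearest to WT5.

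A gene was counted as private to a clone when its level was at least 4-fold above or below all of the other 9 libraries, with at least 0.5 CPM in the highest. There were 336 such cases in 334 genes, which is 1.71% of genes tested. By clone, WT1 had 20, WT3 6, WT4 42, WT5 20 and WT6 59, and KOC3 had 22, KOC5 133, KOD2 7, KOE2 6 and KOF4 21. In KOC5, 126 of the 133 were low. The mean was 29.4 ± 21.0 per WT clone and 37.8 ± 53.8 per KO clone (SD, n = 5 each, two-sided exact permutation p = 0.841), and without KOC5 the KO mean was 28.6 lower than the WT mean in place of 8.4 higher.

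These private states lasted. Of 314 private cases that were also tested after IFNγ, 248 (79.0%) were most extreme, at the same end, in the treated library of the same label, and the share per clone was between 63.2% and 100% outside KOE2 and KOF4, where it was 0 under the labels as given. In comparison, between 6.22% and 13.5% of all genes had their extreme at that end in a given treated library.

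**Figure D4:**
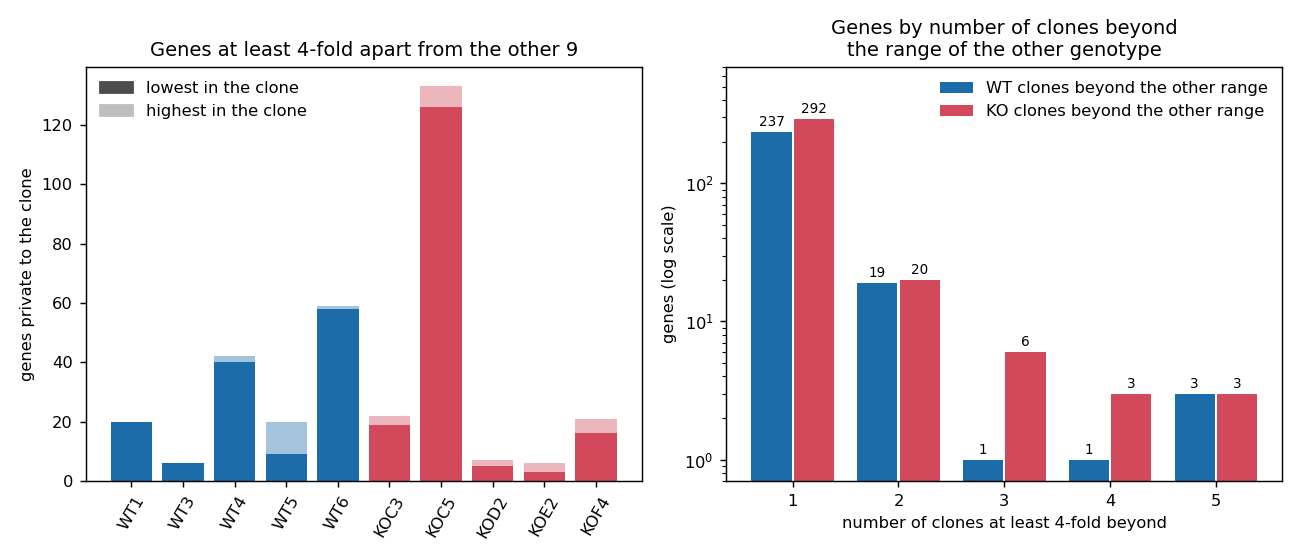
Left, genes private to each untreated clone, in dark where the clone is the lowest and in light where it is the highest, with WT clones in blue and KO clones in red. Right, genes (log scale) by the number of clones of one genotype that lie at least 4-fold beyond the range of the other, where 292 genes depart in 1 KO clone, 20 in 2, 6 in 3, 3 in 4 and 3 in 5.

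Each clone had private genes of its own, and some of those with the widest gaps in CPM to the nearest other library are given here. In WT1, F2R, the thrombin receptor, had 0 counts, which allows at most 0.0509 CPM, against 50.1 to 166 CPM in the other clones. In KOD2, MMP9, a gelatinase, reached 190 CPM, and the next clone had 32.3 CPM. In KOC5, the serine protease inhibitor gene SERPINA1 was at 12.6 CPM, with 149 to 556 CPM elsewhere, and TNNT2, cardiac troponin T, at 42.8 CPM, with at most 5.65 CPM elsewhere.

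In KOF4, BST2, the antiviral factor tetherin, was at 90.8 CPM, above 18.3 CPM in KOD2, and PAGE2B, a cancer-testis gene, was at 0.0203 CPM, with at least 37.4 CPM elsewhere. In KOE2, C11orf96 was at 59.97 CPM and DKK2, a secreted Wnt antagonist, at 7.97 CPM, and in KOC3 ASCC2, a subunit of a DNA repair and ribosome rescue complex, was at 0.335 CPM, with 7.28 CPM or more elsewhere. In WT5, MMP13, a collagenase, was at 56.9 CPM, in WT6 CADM3, an adhesion molecule, at 14.5 CPM, in WT4 C6orf15 at 4.12 CPM, and in WT3 DRAXIN, an axon guidance factor, at 0.160 CPM and LOC124905233 at 0.284 CPM, with at least 7.11 CPM elsewhere. The next clone had at most 9.38 CPM of MMP13, and the lowest of the others had 60.5 CPM of CADM3, 65.8 CPM of C6orf15 and 6.69 CPM of DRAXIN.

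The other gene named for each of 5 clones also lay outside the range of the rest. COL3A1, the chain of collagen III, was at 1.54 CPM in KOC3 and between 6.46 and 668 CPM elsewhere. TRAF1, an adapter of TNF receptors, was at 11.9 CPM in KOD2 and at most 1.71 CPM elsewhere. Among WT clones, MYEOV, which had a larger gap in CPM than MMP13, was at 9.67 CPM in WT5 and at least 66.3 CPM elsewhere, IGFL3, a secreted growth factor-like protein, at 44.4 CPM in WT6 and at most 1.79 CPM elsewhere, and the non-coding MANCR at 27.3 CPM in WT4 and at most 3.57 CPM elsewhere.

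Counting how many KO clones shared a departure gave the same picture from the other side. At least 4-fold beyond the WT range, 292 genes departed in 1 KO clone, 20 in 2, 6 in 3, 3 in 4 and 3 in all 5. Seen from the WT clones, 237 genes departed in 1 clone, 19 in 2, 1 in 3, 1 in 4 and the same 3 in 5. The 3 genes that departed in 4 KO clones were TCN1, DPPA2 and PCDHGB4. DPPA2, a germline and stem cell factor, was at 4.53 CPM in KOC3 and between 0 and 0.419 CPM in the other KO clones, against 1.86 to 4.04 CPM in WT, and PCDHGB4, a clustered protocadherin, was at 5.20 CPM in KOC5 and between 0.0788 and 0.750 CPM in the others, against 4.98 to 10.9 CPM in WT.

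Position on the genome went with part of the variation. As the median over a chromosome's genes with at least 1 CPM in every library, chromosome 18 deviated from the mean of the 10 libraries by -0.01, -0.29, -0.21, -0.12 and 0.01 on the log2 scale in WT1, WT3, WT4, WT5 and WT6, and by 0.03, 0.13, 0.23, 0.20 and 0.09 in KOC3, KOC5, KOD2, KOE2 and KOF4. It was higher in every KO clone than in any WT clone, by 0.26 in the mean, the largest difference of the 23 chromosomes compared. The two-sided exact permutation p was 0.00794, and 0.183 after Benjamini-Hochberg adjustment over the 23 chromosomes. The gap between the groups was narrow, from 0.01 in WT6 to 0.03 in KOC3, and in none of the 6 windows of 50 neighbouring genes on this chromosome did the groups separate. Of its 187 such genes, 170 had a positive log2 fold change, and 5 of 296 tested genes (1.69%) lay above the WT range and none below. Chromosome 17 had the reverse, with 19 of 1134 tested genes (1.68%) below the WT range, none above, and a median log2 fold change of -0.12 over 793 genes, but its clone medians overlapped.

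In windows of 50 neighbouring genes, 2 of 493 had all KO clones on one side of all WT clones. Groups without any difference would separate a share of about 0.00794 of windows, and 2 of 493 is not above that share. Windows next to each other overlap and are not independent, so a separated window does not by itself show a shared shift. On chromosome 4, from 83090048 to 102760968, the KO clones lay between -0.27 and -0.11 and the WT clones between 0.05 and 0.31, and 44 of 50 genes had a negative log2 fold change. There 5 of 68 tested genes (7.35%) lay below the WT range, among them NKX6-1, a homeobox gene, WDFY3, an adapter of selective autophagy, FAM13A and LAMTOR3, a scaffold of signalling at the lysosome. The other window, on chromosome 17 from 47837692 to 50868371, held 2 genes below the WT range out of 79 tested (2.53%), HOXB13 and ANKRD40. Over all genes tested, the share below the WT range was 0.584% and the share above it 0.472%.

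Windows that set 1 clone apart were counted by another rule, for any clone, in either direction and with a size limit. Their number is therefore not comparable with that of the windows above. In 68 of 493 windows a single clone differed from all others by at least 0.3, and by clone the number went from 0 in KOD2 to 17 in WT6. Counted once for each clone set apart, the WT clones had 47 and the KO clones 23, of which KOF4 had 10, KOC3 6 and KOC5 5. In WT1 these windows lay on chromosomes 5 and 10, in WT4 on chromosome 12, in WT5 mostly on chromosome 11 and in WT6 mostly on chromosome 1. What share of the differences above is set by position was not tested. MTFP1, PXMP2 and VWA5A lie on chromosomes 22, 12 and 11, whose medians differed between the groups by 0.10, -0.02 and 0.0046.

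**Figure D5:**
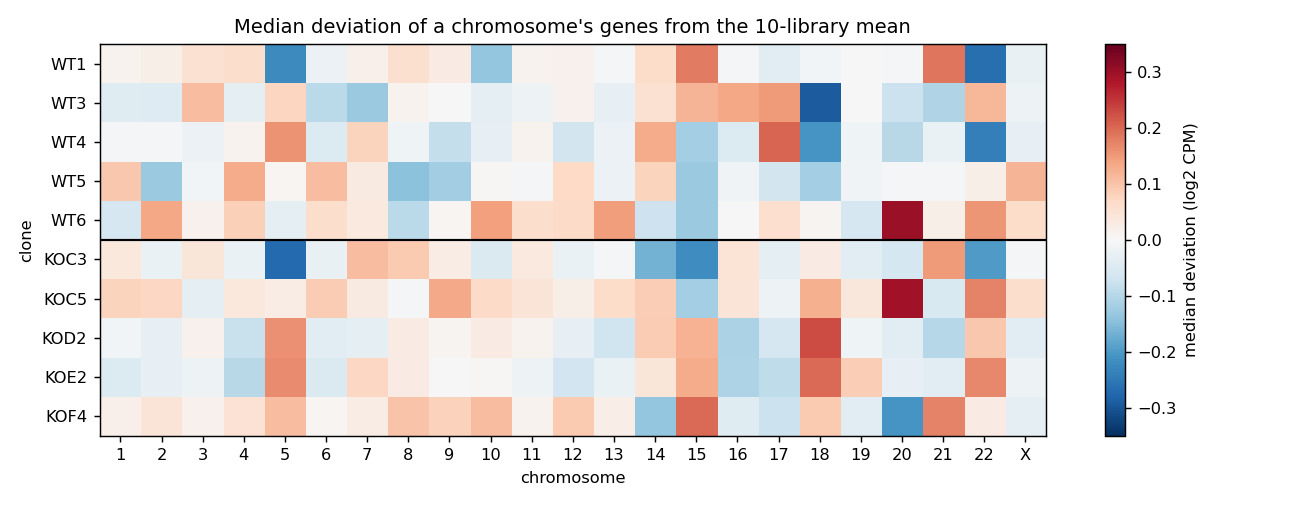
Median deviation of the genes of each chromosome from the mean of the 10 libraries (log2 CPM, colour) for each clone, with WT clones above and KO clones below the black line. Chromosome 18 is lower or near 0 in the WT clones and higher in all KO clones, by 0.26 in the mean, while other shifts run across genotypes, such as chromosome 20, which is high in WT6 and KOC5.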

How the data were processed

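RNA was sequenced by the study as stranded mRNA libraries. The authors aligned reads to GRCh38 with STAR 2.7.9a and a RefSeq index, kept unique mappers and deposited raw counts of 43366 genes from featureCounts 2.4.0, with no normalization. The strand setting of the counting is not given in the sources used here. The counts of the 10 untreated libraries were fitted in R 4.3.3 with edgeR 4.0.16 (TMM, its filter on low counts, robust quasi-likelihood test, KO minus WT, no covariates) and Benjamini-Hochberg adjustment over 19505 genes. The study's methods name DESeq2, here version 1.42.0, which was run as an alternative. Standard errors come from the fold change and the F statistic. Log2 CPM used a prior count of 2. Single values were compared by two-sided exact permutation over 252 arrangements. The fit was tested on simulated data.

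The comparison, gene lists and tests were chosen with earlier results of these data known. Named genes are those past both cut-offs, ZBTB48, the study's targets, the 12 largest falls and 8 largest rises outside the WT range with at least 1 CPM (7 rises qualified), up to 3 members of each list with the smallest p, 2 private genes per clone and the neighbours of called genes. COL11A1, MSS51 and the other neighbours of PPP3CB and CCDC106, the further lysosomal genes, DPPA2, PCDHGB4, the genes of the chromosome 4 and 17 windows and those in the closing section were chosen after their values were seen. A few genes are not reported here. Promoter sequences are from RefSeq, GRCh38.p14. Alternatives were other scaling, no filter, DESeq2, all 20 libraries, a replicate block, other cut-offs, leaving out each clone and, chosen after seeing the data, leaving out KOE2 and KOF4 together.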

Additional observations from a re-analysis of the deposited data

Results flagged for a closer look

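In all, 3 values stood apart from the other 4 clones of their group by Dixon's test on log2 CPM, run on 42 groups (21 genes in 2 genotypes), of which chance alone sets apart about 1 in 20. VWA5A was at 0.0612 CPM in KOC5, while the other KO clones had 0.374 to 0.680 CPM. The non-coding LOC107985362 was at 0.466 CPM in WT6, while the other WT clones had 1.59 to 2.31 CPM. BMP4 was at 26.7 CPM in WT4, while the other WT clones had 47.7 to 55.7 CPM.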

How the results depend on the processing

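The number of genes called was 3 and changed to 5 with no filter on low counts, 13 with DESeq2 without shrinkage, 5 with DESeq2 and normal shrinkage, 5 in a fit of all 20 libraries, 6 at an adjusted p under 0.05 and 2 to 4 when 1 clone was left out. MTFP1 and PXMP2 were called in all of these, VWA5A was lost without any 1 of WT1, WT3, WT4, WT5, KOC3, KOD2, KOE2 or KOF4, and all calls were falls. Without both KOE2 and KOF4 the count was 2. The replicate numbers of WT and KO clones share only a number, since deviations of same-numbered clones correlated at Pearson's r of 0.11, -0.20, 0.23, -0.11 and -0.08 over 19505 genes, which are not independent replicates, and not every clone correlated best with its own number. With the replicate block 1 gene was called, PXMP2, with an adjusted p of 0.0143 for MTFP1 and 0.051 for VWA5A.

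The 29 genes below and 16 above the WT range became 45 and 43 with no filter, and 41 to 75 and 18 to 53 without 1 clone, since fewer clones separate more easily. The difference of distances, -0.00247, ranged from -0.0114 to 0.00645 without 1 clone and turned positive without WT1, KOC3 or KOC5, with no p under 0.579. The 336 private cases became 1830 at a gap of 2-fold, 99 at a gap of 8-fold and 303 to 396 without 1 clone, and the KO minus WT mean number, 8.4, ranged from -28.6 without KOC5 to 23.5. None of the 21 log2 fold changes recomputed (ZBTB48, the targets, and the largest falls and rises) turned its sign, and those of neighbours and list members were not recomputed. The 13 calls of DESeq2 were the 3 genes with ACAP3, CCDC106, CELF3, COL11A1, LOC124902696, MAP3K4-AS1, PPP3CB, TCN1, TMEM63C and VWA5B2, and NAGLU had an adjusted p of 9.33e-06 in DESeq2 with a fall of less than 2-fold. Counts under about 3 per library limit statements on the low side, and errors cover only these clones.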

Other observations

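Some genes were switched on in several clones and off in the others without regard to genotype. Over all tested genes with at least 0.5 CPM in a library, 476 had their largest gap between neighbouring clones at 4-fold or more, and in 77 of these it split the clones into sets of at least 3. Of 11 genes with a split into 5 and 5 clones, 3 divided them by genotype, and these were MTFP1, VWA5A and PXMP2.

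GPAT2, an acyltransferase, was between 61.5 and 87.0 CPM in 7 clones and between 0.58 and 0.673 CPM in WT5, WT6 and KOC5. HOXB2, a homeobox gene, was at 25.1, 23.7 and 34.6 CPM in WT3, WT4 and KOF4 and between 0.118 and 0.628 CPM in the other 7 clones. KLK6, a secreted kallikrein, was at 6.97, 10.8 and 6.40 CPM in WT4, WT5 and KOC5 and between 87.6 and 265 CPM in the others. CT45A1, a cancer-testis gene, was between 19.9 and 30.4 CPM in WT1, WT3, KOC3, KOD2 and KOE2 and at most 1.56 CPM in the other 5 clones.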
